A study of Mus musculus with 4 samples.

Results

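The 10 aldo-keto reductase genes Akr1b3, Akr1b7, Akr1b8, Akr1b10, Akr1c12, Akr1c13, Akr1c14, Akr1c18, Akr1c19 and Akr1c21 were followed by gene symbol in 4 mouse gastric organoid libraries, out of 45777 genes listed. The set of 4 Akr1b and 6 Akr1c genes was picked from values of the same comparison, because Akr1c21 had counts in 1 genotype only. Differences between the genotypes in these genes are therefore given as a description, with no test. RNA was sequenced from organoids with Cdh1, Trp53 and Smad4 knocked out (genotype label Smad4 Knockout, lines CPS1 and CPS4), called Smad4 Knockout 1 and 2 here. The comparison was with organoids with Cdh1 and Trp53 knocked out (genotype label Control, lines CPE and CPG), called Control 1 and 2. Loss of Cdh1, the gene of E-cadherin, and of Trp53, the gene of p53, is thus shared by every library, and no library with both genes intact was analysed here. Organoids grew with L-WRN conditioned medium and fetal bovine serum, then spent the last 2 days before harvest without either, in medium with B27 and N2. Whether the lines are single clones, come from separate animals or descend from one another is not stated in the labels, so the spread between 2 libraries of a genotype may be technical or may be the spread between lines, and p-values measure only that spread.

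Aldo-keto reductases are soluble enzymes that use NADPH or NADH to turn aldehydes and ketones into alcohols, and some run the reverse reaction. The 1B family includes aldose reductase, which makes sorbitol from glucose in the polyol pathway, and relatives that clear reactive aldehydes and retinal. The 1C family holds hydroxysteroid dehydrogenases, which switch steroid hormones between active and inactive forms, and also acts on prostaglandins and on foreign carbonyl compounds. In gut epithelium the human enzyme AKR1B10 is known for retinal and aldehyde reduction, and several members of both families are known targets of the oxidant-sensing factor NRF2.

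The members of each family lie in 1 cluster of the genome and are close copies, so some reads may be assigned to more than 1 of them. All coordinates are in GRCm38, the build also called mm10. The Akr1b genes span 119.2 kb of chromosome 6 (34303930 to 34423137) in the order Akr1b3, Akr1b8, Akr1b10, Akr1b7. The Akr1c members span 537.6 kb of chromosome 13 (4048991 to 4586543) in the order Akr1c14, Akr1c18, Akr1c13, Akr1c19, Akr1c12, Akr1c21. The coding sequence is 948 bases long in each Akr1b member and 969 bases in each Akr1c member. Identity of coding sequence ran from 71.6% to 89.2% over the 6 pairs within Akr1b, from 71.1% to 96.2% over the 15 pairs within Akr1c, and from 54.2% to 57.2% over the 24 pairs between the families. Akr1c12 and Akr1c13 were the closest pair at 96.2%, followed by Akr1b7 and Akr1b10 at 89.2%. The closest member to Akr1c21 was Akr1c18, at 76.8%.

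**Figure D1:**
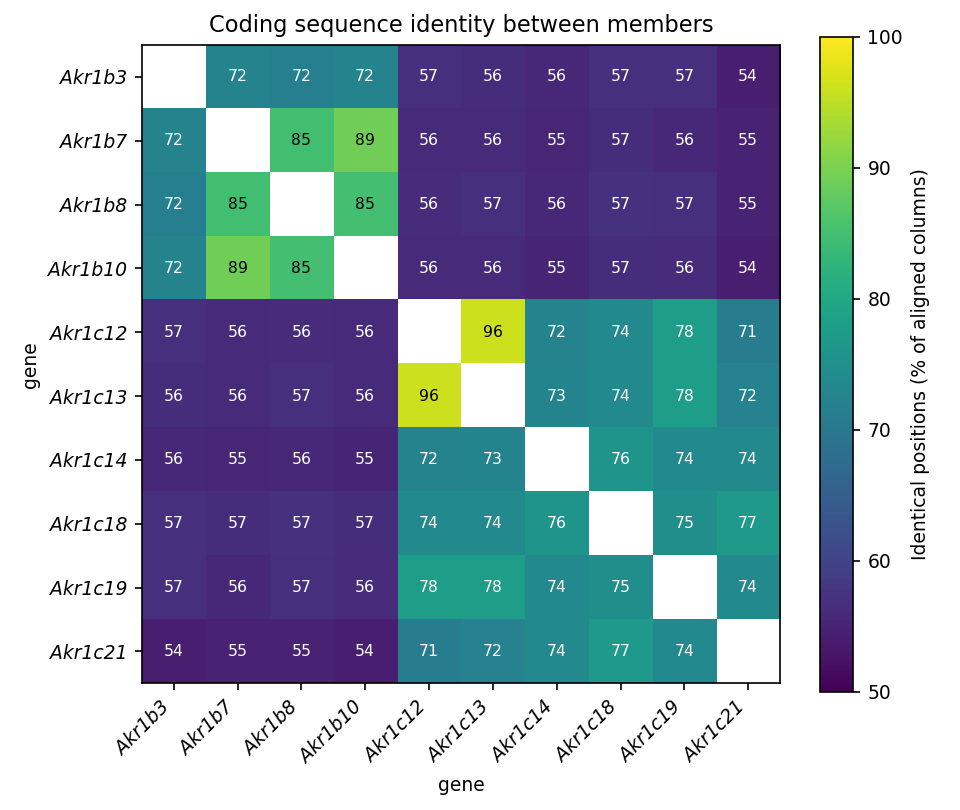
Identity of the coding sequences of the 10 members (percent of aligned columns; rows and columns are genes). The families form separate blocks, and Akr1c12 with Akr1c13 stands out at 96.2%.

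To show what separates the copies, 60 bases of coding sequence are printed for each of 2 pairs, with the bases that differ in capitals. The first pair is the one that could most easily share reads, in the stretch where it differs most, coding bases 343 to 402 counted from the A of the start codon.
Akr1c12: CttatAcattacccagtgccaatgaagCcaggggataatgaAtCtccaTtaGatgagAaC
Akr1c13: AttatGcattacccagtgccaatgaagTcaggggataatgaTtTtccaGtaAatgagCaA
The second pair sets Akr1c21 against its closest member in the stretch where they differ least, coding bases 409 to 468.
Akr1c21: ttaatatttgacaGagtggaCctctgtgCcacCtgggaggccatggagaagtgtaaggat
Akr1c18: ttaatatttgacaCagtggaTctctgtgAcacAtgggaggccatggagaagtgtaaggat
Akr1c12 and Akr1c13 differed at 9 of the 60 bases in their most different stretch, and Akr1c21 and Akr1c18 at 4 of 60 in their most alike stretch. Exact matches over whole stretches were then counted in the mature transcripts of the GENCODE annotation, release M21. Of the 1162 windows of 100 bases in Akr1c12, 134 (11.5%) were also found in Akr1c13, and at 50 bases the share was 28.6%. No window of 100 bases was shared between any other members. Akr1c21, Akr1c14 and Akr1c19 shared no window of 50 bases with any annotated transcript of another gene. In Akr1b3, 50.6% of the 100-base windows also occurred in predicted genes that are not among the members. Gm6644 and Gm6736 are among them, and they are thus partial copies of its sequence. No read length is given in the labels, so these shares describe the sequences and not the reads.

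Upstream sequences are shown for the closest pair and for Akr1c21, as the 250 bases before an annotated transcription start (RefSeq, GRCm38.p6), read in the direction of the gene. For Akr1c13, Akr1c14 and Akr1c19 that start lies inside the gene bounds given in this report. The stretch is then partly within those bounds for Akr1c13 and Akr1c19, and wholly within them for Akr1c14. Capitals mark the SMAD-binding CAGA box AGCCAGACA where it occurs.
Akr1c12 (chr13:4279400-4279649, minus strand): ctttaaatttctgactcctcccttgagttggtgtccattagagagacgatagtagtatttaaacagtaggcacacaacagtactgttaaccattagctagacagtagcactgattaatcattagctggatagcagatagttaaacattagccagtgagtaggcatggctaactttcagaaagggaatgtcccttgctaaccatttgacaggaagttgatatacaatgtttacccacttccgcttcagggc
Akr1c13 (chr13:4190937-4191186, plus strand): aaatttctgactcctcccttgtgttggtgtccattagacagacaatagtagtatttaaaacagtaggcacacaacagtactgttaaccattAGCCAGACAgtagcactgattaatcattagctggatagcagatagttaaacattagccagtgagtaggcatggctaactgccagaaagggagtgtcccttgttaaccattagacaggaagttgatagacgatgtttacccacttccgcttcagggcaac
Akr1c21 (chr13:4573825-4574074, plus strand): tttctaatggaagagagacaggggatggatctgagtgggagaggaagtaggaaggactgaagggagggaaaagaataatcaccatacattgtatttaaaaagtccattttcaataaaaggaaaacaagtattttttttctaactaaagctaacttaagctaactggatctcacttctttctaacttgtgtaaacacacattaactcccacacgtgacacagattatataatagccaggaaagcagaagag
The upstream sequences of Akr1c12 and Akr1c13 were 92.5% identical over the aligned columns, the highest value of any pair. On either strand the CAGA box was found in Akr1c13 and in none of the other 8 members with an entry, and in 0.301% of all 32851 upstream sequences. The palindromic SMAD element GTCTAGAC, which has AGAC in common with it, was in no member and in 0.167% of all. The core of the antioxidant response element bound by NRF2, TGACNNNGC, was in no member either and in 10.2% of all. Akr1b3 was not matched.

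Smad4 itself was at 54.4 and 52.9 CPM in the knockouts and at 94.5 and 103 CPM in the controls, below the controls in both libraries but present (edgeR adjusted p = 0.677). The knockout libraries held 85649781 and 96402585 counts, against 99845702 and 92334224 in the control libraries. Smad4 Knockout 2 had the highest share of mitochondrial counts (1.48%, against 0.937% to 1.18% in the other libraries) and of ribosomal RNA (0.562%, against 0.242% to 0.389%). Epithelial markers (Epcam, Krt8, Krt18) summed to 6865 and 6722 CPM in the knockouts and to 7340.4 and 6572 CPM in the controls. Of 4 mucous neck and gland base markers, Pgc and Cblif were at 0 throughout and Muc6 was at most 0.163 CPM, so that their sum of 37.6 and 23.4 CPM in the knockouts and 18.02 and 12.99 CPM in the controls was nearly all Tff2. Of the parietal markers Atp4b was at 0 throughout, and Atp4a was at 3.598 and 3.539 CPM in the knockouts and at 3.91 and 4.02 CPM in the controls. Summed levels of 7 intestinal markers were 153 and 204 CPM in the knockouts and 107 and 62.5 CPM in the controls, with Fabp1 at 0. Those of 4 stomach pit markers were 39.0 and 84.9 CPM in the knockouts and 29.4 and 19.8 CPM in the controls. In the knockouts the largest part of the intestinal sum was Cdh17 (73.2 and 113 CPM, against 29.2 and 15.6 CPM in the controls). Vil1 overlapped between genotypes (53.8 and 52.6 CPM in the knockouts, 52.8 and 27.7 CPM in the controls). Cdx2 was higher in both knockouts, and Fabp2 overlapped. Most of the pit sum was Tff1, which was higher in both knockouts, as was Gkn1, while Muc5ac and Gkn2 overlapped. Both sums were highest in Smad4 Knockout 2, as were Akr1c14, Akr1c18, Akr1c19 and Akr1c21, and the part of these cell type markers, and of the mitochondrial and ribosomal shares, in the members' levels was not tested. Of the liver markers Alb was at 0 in every library, and the 3 together reached at most 0.619 CPM.

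Levels between genes are compared in TPM, the deposited value scaled to transcript length and to library size. Averaged over the 4 libraries, TPM was highest for Akr1b3 at 359.1, followed by Akr1b8 at 189.9, Akr1c13 at 60.95, Akr1c19 at 44.3, Akr1c12 at 43.5 and Akr1b10 at 19.9. The other 4 members were near 1 TPM or lower, with 1.11 for Akr1c14, 0.476 for Akr1c21, 0.473 for Akr1c18 and 0.213 for Akr1b7. The order of Akr1c12 and Akr1c19 was not the same in both genotypes. In the knockouts Akr1c19 (48.1 and 56.0 TPM) lay above Akr1c12 (47.5 and 43.0 TPM), and in the controls Akr1c19 (36.6 TPM in each library) lay below Akr1c12 (41.7 and 41.8 TPM). Across libraries the values of Akr1c14, Akr1c21, Akr1c18 and Akr1b7 overlapped between neighbours in this order. Within each library Akr1c14 was the highest of these 4 genes, and the order of Akr1c21, Akr1c18 and Akr1b7 is not resolved.

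**Figure D2:**
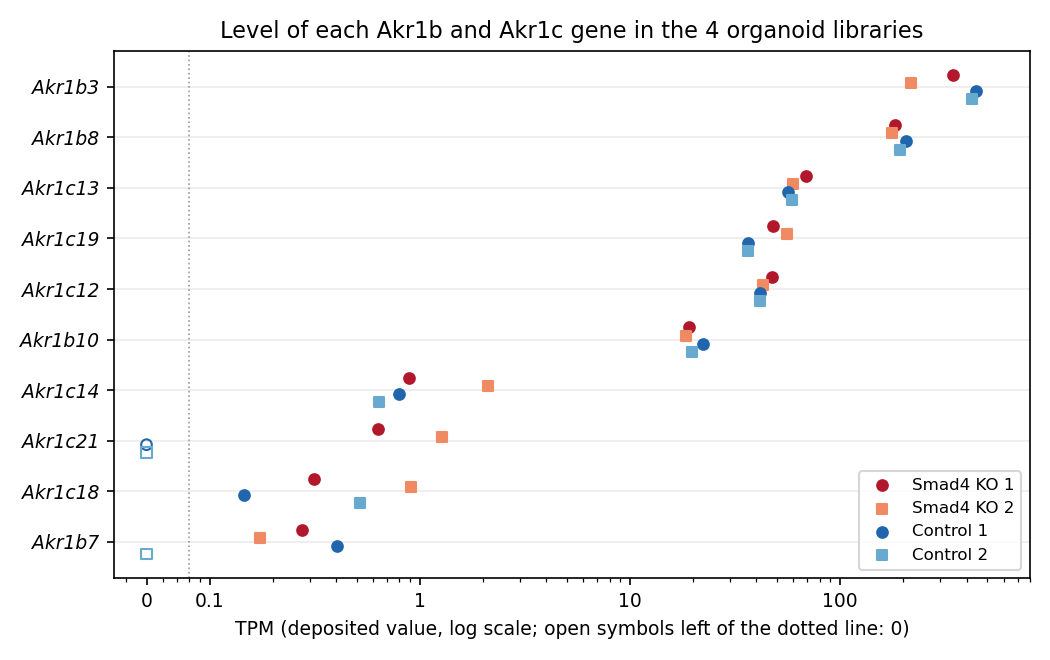
Deposited TPM of each member (log axis; open symbols at the left are values of 0), ordered by the mean over the 4 libraries. Akr1b3 and Akr1b8 lie far above the low group of Akr1c14, Akr1c21, Akr1c18 and Akr1b7.

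Between genotypes, levels are given in CPM, counts scaled to library size with TMM factors. All 10 members passed the filter on low counts. In 5 members (Akr1c12, Akr1c13, Akr1c14, Akr1c19 and Akr1c21) both knockout libraries were above both controls, in 3 (Akr1b3, Akr1b8 and Akr1b10) both were below, and in Akr1b7 and Akr1c18 the groups overlapped. Among all 18115 genes tested, 18.2% lay above and 18.6% below in this way (36.9% in either direction), and the counts of members are not read against these shares because the members were picked from this comparison. The median log2 fold change was 0.11 over the members and -0.00257 over all genes tested, and these 2 values are likewise not read against each other. The member median rests in part on Akr1b7 (0.11), which ran from -0.89 to 7.03 as each library was left out. In bulk RNA, fewer cells of a type and less RNA per cell cannot be told apart.

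Akr1b3, aldose reductase (Entrez gene 11677, on chromosome 6 between bases 34303930 and 34317489), was at 284 and 192 CPM in the knockouts and at 401 and 359.8 CPM in the controls. Both knockout libraries were below both controls, and Smad4 Knockout 2 was the lowest. The means were 238 ± 64.8 CPM in the knockouts and 380.4 ± 29.1 CPM in the controls (SD, n = 2 each), and the log2 fold change was -0.67 (SE 0.19). It was -0.41 without Smad4 Knockout 2, so the size of the difference leans on that library. In the knockouts the predicted genes Gm6644 and Gm6736, which share windows with Akr1b3, had 1181 and 871 counts (Gm6644) and 1103 and 828 counts (Gm6736). In the controls Gm6644 had 1881 and 1696 counts and Gm6736 had 1767 and 1614. Relative to the Akr1b3 count of the same library this was from 4.67% to 5.09% for Gm6644 and from 4.44% to 4.84% for Gm6736. Whether these counts come from reads of Akr1b3 was not tested, so no difference in Gm6644 or Gm6736 themselves is read from them. Adding both to Akr1b3, a choice made after seeing the data, gave a log2 fold change of -0.68.

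By the distance between centred log2 CPM profiles over the 4 libraries, the genes most like Akr1b3 among 10804 genes averaging 5 CPM or more were Cadm4 (0.026), Dok7 (0.028), Pmepa1 (0.041), Mcam (0.041) and Cgnl1 (0.042), each as a root mean square on the log2 scale. Cadm4 and Mcam are cell adhesion molecules, Cgnl1 is a junction protein, and Pmepa1 is a feedback inhibitor of TGF-beta signalling. Pmepa1 was at 86.1 and 55.4 CPM in the knockouts and at 118 and 112 CPM in the controls. Dok7, an adaptor of receptor tyrosine kinases, was at 13.0 and 8.67 CPM in the knockouts and at 19.0 and 16.7 CPM in the controls. With 4 libraries, such a likeness describes an order of levels and no more.

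Akr1b8 and Akr1b10 lay only slightly below the controls. Akr1b8, an aldehyde and retinal reductase (Entrez gene 14187, on chromosome 6 between bases 34354146 and 34368461), was at 143 and 148 CPM in the knockouts and at 176 and 154 CPM in the controls. Its log2 fold change was -0.19 (SE 0.11), and -0.09 without Control 1. Akr1b10 (Entrez gene 67861, on chromosome 6 between bases 34384247 and 34396949) was at 15.0 and 15.5 CPM in the knockouts and at 19.1 and 15.9 CPM in the controls. Its log2 fold change was -0.20 (SE 0.15), ranging from -0.33 without Control 2 to -0.05 without Control 1. In both genes Control 1 was the highest library, and the other 3 libraries lay close together. The ratio of Akr1b8 to Akr1b10 in TPM was 9.59 and 9.58 in the knockouts and 9.28 and 9.78 in the controls, so the deposited values kept nearly the same proportion in every library. Of the windows of 50 bases, 2.37% in Akr1b8 and 3.18% in Akr1b10 were shared with another member. Whether shared reads bear on this ratio was not tested. The ratio of Akr1b3 to Akr1b8 was 1.89 and 1.24 in the knockouts and 2.16 and 2.21 in the controls.

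Akr1b7, first described as a protein of the mouse vas deferens and adrenal (Entrez gene 11997, on chromosome 6 between bases 34412362 and 34423137), was barely detected. It had 18 and 14 counts in the knockouts and 32 and 0 in the controls. Control 1 and Control 2 were the highest and the lowest library, so no difference between genotypes is read from these counts. At 0 counts, the exact Poisson 95% interval reaches 3.69 counts. It covers counting error only and takes the deposited values as read counts. Of its windows of 50 bases, 1.14% were shared with another member. Whether its counts come from reads of Akr1b8 or Akr1b10 was not tested.

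**Figure D3:**
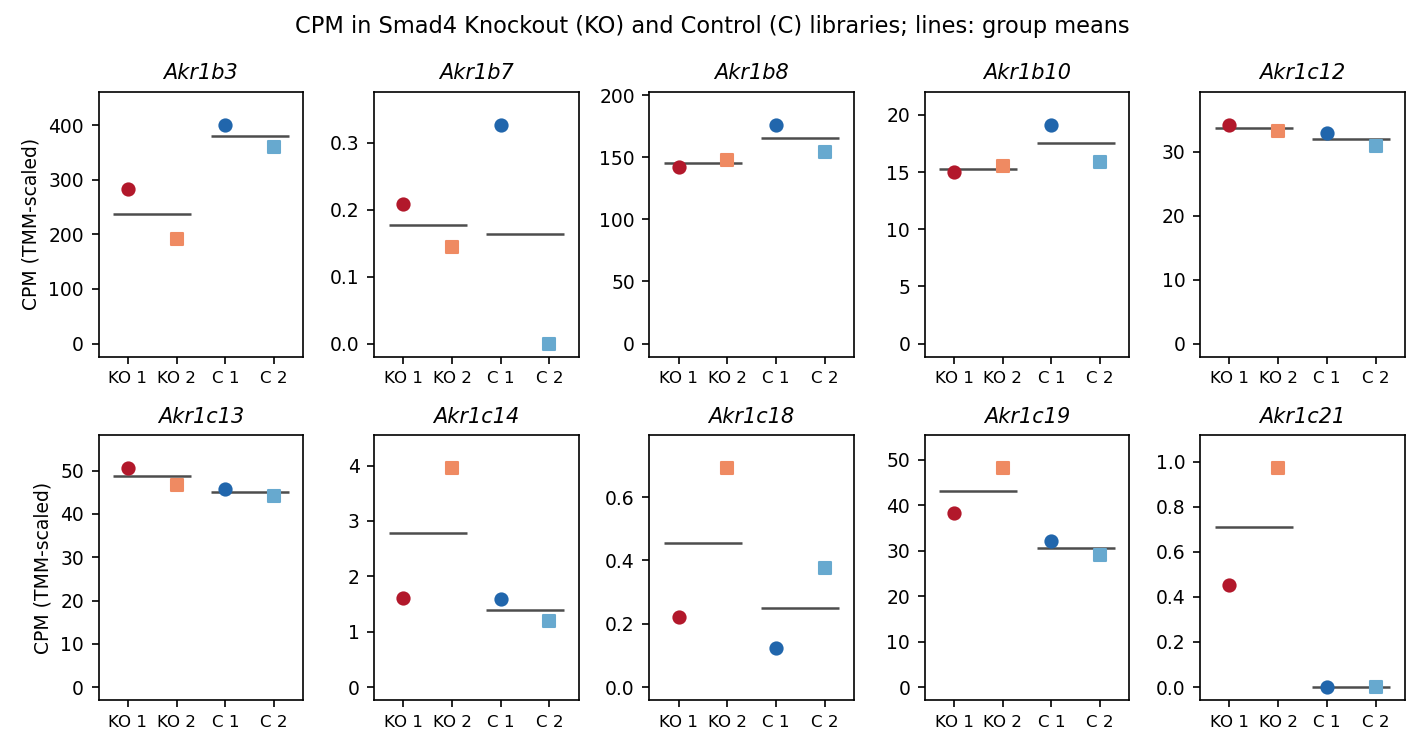
CPM of each member in Smad4 Knockout (KO) and Control (C) libraries, with lines at the group means of 2 libraries each; every panel has its own axis from 0. Akr1b3 is lower and Akr1c19 higher in both knockouts, and Akr1c21 is at 0 in both controls.

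Among the Akr1c genes, the near-identical Akr1c12 and Akr1c13, dehydrogenases of alcohols and ketosteroids, differed little between genotypes. Akr1c12 (Entrez gene 622402, on chromosome 13 between bases 4268172 and 4279399) was at 34.2 and 33.3 CPM in the knockouts and at 33.02 and 30.95 CPM in the controls. Akr1c13 (Entrez gene 27384, on chromosome 13 between bases 4191168 and 4205604) was at 50.5 and 46.8 CPM in the knockouts and at 45.9 and 44.3 CPM in the controls. Both knockout libraries were above both controls in each gene, by small margins. The log2 fold changes were 0.08 (SE 0.11) and 0.11 (SE 0.11). Akr1c12 ranged from 0.03 without Control 2 to 0.13 without Control 1, and Akr1c13 from 0.05 without Smad4 Knockout 1 to 0.18 without Smad4 Knockout 2. Because the 2 genes can share reads, their counts were also summed, which gave 84.8 and 80.04 CPM in the knockouts, 78.9 and 75.2 CPM in the controls and a log2 fold change of 0.10 (SE 0.10). The TPM ratio of Akr1c13 to Akr1c12 was 1.45 and 1.39 in the knockouts and 1.36 and 1.41 in the controls.

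Akr1c19, a dehydrogenase that lies between Akr1c13 and Akr1c12 (Entrez gene 432720, on chromosome 13 between bases 4233503 and 4248361), had the largest difference among the well-expressed Akr1c members. It was at 38.3 and 48.1 CPM in the knockouts and at 32.1 and 28.9 CPM in the controls. Both knockouts were above both controls, with the highest value in Smad4 Knockout 2. The means were 43.2 ± 6.91 CPM in the knockouts and 30.5 ± 2.26 CPM in the controls (SD, n = 2 each), and the log2 fold change was 0.50 (SE 0.15). It ranged from 0.34 without Smad4 Knockout 2 to 0.66 without Smad4 Knockout 1.

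Akr1c14 and Akr1c18 were low and were highest in Smad4 Knockout 2. Akr1c14, a hydroxysteroid dehydrogenase (Entrez gene 105387, on chromosome 13 between bases 4048991 and 4090560), was at 1.61 and 3.95 CPM in the knockouts and at 1.58 and 1.19 CPM in the controls. Smad4 Knockout 1 was level with Control 1, and the log2 fold change of 1.01 (SE 0.48) became 0.23 without Smad4 Knockout 2 and 1.51 without Smad4 Knockout 1. Akr1c18, which inactivates progesterone in the mouse ovary (Entrez gene 105349, on chromosome 13 between bases 4132615 and 4150646), had 19 and 67 counts in the knockouts and 12 and 35 in the controls. The groups overlapped, and the log2 fold change of 0.87 (SE 0.95) ran from -0.17 without Smad4 Knockout 2 to 1.88 without Control 2.

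Akr1c21, a hydroxysteroid dehydrogenase known from mouse kidney (Entrez gene 77337, on chromosome 13 between bases 4574075 and 4586543, 9 exons on the plus strand), had 39 and 94 counts in the knockouts and 0 counts in both controls. That is 0.451 and 0.970 CPM in the knockouts. Exact Poisson 95% intervals ran from 27.7 to 53.3 counts in Smad4 Knockout 1 and from 76.0 to 115 in Smad4 Knockout 2. These intervals cover counting error only and take the deposited values as read counts. If each control library held 3 counts, the mean level would be 22.6-fold higher in the knockouts, and the level in Smad4 Knockout 1 alone 14.3-fold. These ratios use the observed knockout counts and are not lower limits. At 0 counts the Poisson interval reaches 3.69 counts, and it leaves out the spread between libraries. No fold change from the fit is given, since it depends on the count added to zeros. The level remained low, at 0.632 and 1.27 TPM in the knockouts, against 48.1 and 56.0 TPM for Akr1c19 in the same libraries.

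The zero pattern of Akr1c21 was compared with the other genes as a description. Of 24567 genes with a count in any library, 373 had 0 counts in both controls and counts in both knockouts, and 310 had the reverse. Only Akr1c21 itself (1 gene, 0.00407%) had 0 in both controls and at least 39 and 94 counts in Smad4 Knockout 1 and 2. These limits are its own counts and it was picked for this pattern, so nothing is read from that number. For the reverse pattern with the same counts the number was 0. A count of 0 beside a count of at least 39 also occurred within a genotype, in 86 genes between the knockout libraries and in 91 between the controls. Beside a count of at least 94, it occurred in 7 genes in each genotype. Its neighbours in the cluster on chromosome 13, Akr1c20 and Akr1c6, were at 0 counts in all 4 libraries. Akr1e1, the next gene on its other side, which encodes a reductase of anhydrofructose, was at 13.1 and 16.5 CPM in the knockouts and at 11.8 and 10.95 CPM in the controls.

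Summed over the family, the Akr1b members were at 549 and 413.5 TPM in the knockouts and at 674 and 639.9 TPM in the controls. The Akr1c members were at 166 and 163 TPM in the knockouts and at 136 and 138 TPM in the controls. The 2 sums thus lay on opposite sides, with a log2 fold change in CPM of -0.50 (SE 0.14) for the Akr1b sum and 0.25 (SE 0.10) for the Akr1c sum. Among the well-expressed members, the largest log2 fold changes were -0.67 for Akr1b3 and 0.50 for Akr1c19. Those of Akr1b8, Akr1b10, Akr1c12 and Akr1c13 were -0.19, -0.20, 0.08 and 0.11. The members were picked from this comparison, so the sums are not read as a shift of a whole family. Within Akr1b, the share of Akr1b3 was 63.1% and 52.8% in the knockouts and 66.03% and 66.7% in the controls. Within Akr1c, the share of Akr1c19 was 28.9% and 34.4% in the knockouts and 27.0% and 26.4% in the controls, while Akr1c21 took 0.380% and 0.780% in the knockouts.

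**Figure D4:**
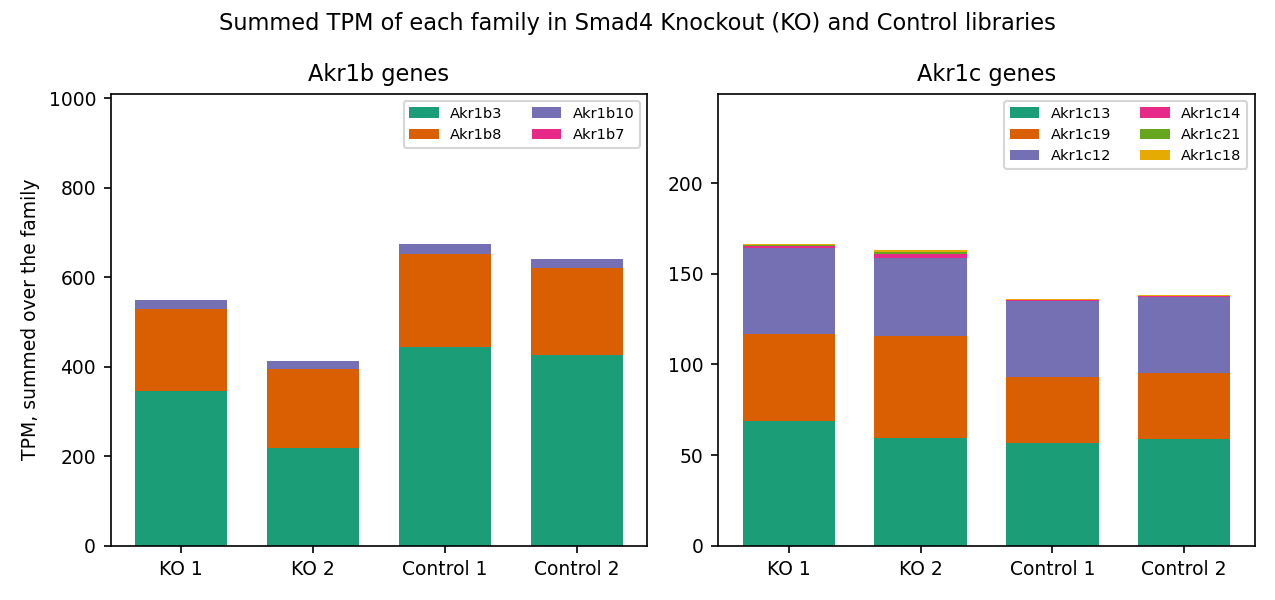
Deposited TPM of the members stacked by gene for each family in Smad4 Knockout (KO) and Control libraries, on axes from 0. The Akr1b sum is lower in both knockouts (549 and 413.5 TPM) than in both controls (674 and 639.9 TPM), mainly through Akr1b3.

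Genes of related pathways were described from 5 lists and tested with edgeR's quasi-likelihood test, where 0 of 18115 genes (0%) passed an adjusted p of 0.05 in either direction. An unadjusted p under 0.05 was found for 1153 genes (6.36%), and DESeq2 called 133 (0.724%). None of the lists had a member that passed in edgeR, and the smallest adjusted p in any of them was 0.677. Of the 10 other aldo-keto reductases, 5 were tested, with a median log2 fold change of 0.04. Akr1a1, the aldehyde reductase, was at 335 and 345 CPM in the knockouts and at 351 and 311 CPM in the controls (log2 fold change 0.04, SE 0.11). Akr7a5, a succinic semialdehyde reductase, was at 22.6 and 23.5 CPM in the knockouts and at 25.5 and 22.4 CPM in the controls. Kcnab3, a potassium channel subunit with an aldo-keto reductase fold, was at 1.01 and 0.712 CPM in the knockouts and at 0.909 and 0.432 CPM in the controls.

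In the list of NRF2 target genes all 26 were tested. A total of 21 had a log2 fold change above 0 and 5 below, with a median of 0.13, against -0.00257 for all genes. In 12 of them both knockouts were above both controls, and in 4 both were below, beside 18.2% above and 18.6% below among all genes tested. The list was chosen with earlier results of these data known. Its counts and median are therefore not read against the values for all genes. The members with the highest levels did not separate much. Prdx1, a peroxiredoxin, was at 795.5 and 796 CPM in the knockouts and at 804 and 768.5 CPM in the controls, and the log2 fold changes of Tkt, Gsr and Slc7a11 were 0.10, -0.12 and 0.13. Gsta3, a glutathione transferase, was called by DESeq2 alone (adjusted p = 0.00545) and was named after its value was seen. It was at 31.4 and 44.1 CPM in the knockouts and at 21.5 and 17.9 CPM in the controls (log2 fold change 0.94, SE 0.20, edgeR adjusted p = 0.677).

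Other carbonyl, alcohol and aldehyde enzymes had 21 tested members, 14 above 0 and 7 below, with a median log2 fold change of 0.21. Rdh10, which oxidises retinol, was at 659.7 and 577 CPM in the knockouts and at 739.8 and 700.2 CPM in the controls (log2 fold change -0.22, SE 0.11). Leaving out Smad4 Knockout 2 gave -0.11. Adh5, Aldh2 and Rdh11 had log2 fold changes of 0.09, -0.15 and 0.25. Cbr2, a carbonyl reductase, was the member called by DESeq2 (adjusted p = 0.0192), with 3.37 and 8.18 CPM in the knockouts and 1.80 and 1.13 CPM in the controls. Its edgeR adjusted p was 0.677. Its log2 fold change was 1.98 (SE 0.49), with 2.48 without Smad4 Knockout 1 and 1.21 without Smad4 Knockout 2.

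For the polyol and fructose pathway, which uses the sorbitol made by aldose reductase, 5 members were tested, with a median of 0.32. Sord, which turns sorbitol into fructose, was at 51.6 and 70.6 CPM in the knockouts and at 50.6 and 34.8 CPM in the controls (log2 fold change 0.52, SE 0.23, edgeR adjusted p = 0.810). Smad4 Knockout 1 was nearly level with Control 1 for Sord. The log2 fold change was 0.27 without Control 2, 0.29 without Smad4 Knockout 2 and 0.81 without Control 1. Khk, the fructose kinase, was at 3.21 and 4.26 CPM in the knockouts and at 4.78 and 3.99 CPM in the controls. The log2 fold change of Tkfc was 0.32, with 0.13 without Control 2 and 0.55 without Control 1. That of Slc2a5, a fructose transporter, was -0.82 and rested on single libraries, with -0.18 without Smad4 Knockout 2, -0.40 without Control 2 and -1.94 without Smad4 Knockout 1.

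The list of steroid and prostaglandin enzymes had 18 tested members, 9 above 0 and 9 below, with a median of -0.03. Ptgs2, the inducible cyclooxygenase, was at 596 and 371 CPM in the knockouts and at 794 and 704 CPM in the controls (log2 fold change -0.63, SE 0.22, edgeR adjusted p = 0.734). Leaving out Smad4 Knockout 2 gave -0.32, and leaving out Smad4 Knockout 1 gave -1.01. Ptges3, Hsd17b12 and Hsd17b4 had log2 fold changes of 0.03, 0.01 and -0.07.

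**Figure D5:**
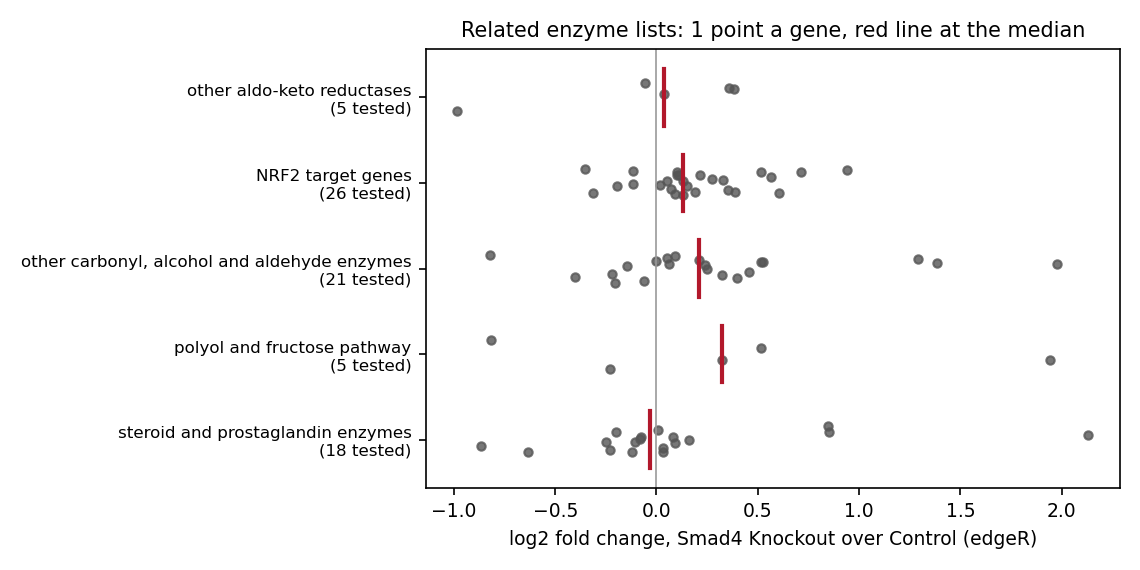
Log2 fold change of each tested gene (Smad4 Knockout over Control, edgeR) in the 5 related lists, with a red line at each median. Medians run from -0.03 for steroid and prostaglandin enzymes to 0.32 for the polyol and fructose pathway, and no gene passed the edgeR test.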

How the data were processed

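Each deposited file covers 1 library and lists 45777 genes with their TPM, FPKM and count, per the file headers. The submitters name StringTie among the tools run before deposition, so the deposited counts may be estimated counts, although they hold no decimals. They went into edgeR and DESeq2 as deposited, and the Poisson intervals take them as read counts. TPM values were used as the authors deposited them. A total of 5 FPKM columns were not used, as the file of Smad4 Knockout 1 also holds the FPKM of Smad4 Knockout 2. Among the tools in the submitters' processing notes are HISAT2 2.1.0, StringTie 2.1.3b, Trimmomatic and bcl2fastq 2.20.0, with the build mm10. Libraries were made with a stranded total RNA kit, per the labels' protocols. The labels do not state the strand setting, how multiply aligned reads were treated or how counts were made. The columns of Control 2 carry its title with an added 2.

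Counts of all genes were tested with edgeR 4.0.16 in R 4.3.3 (TMM, filterByExpr with a minimum count of 10, quasi-likelihood F-test, genotype as the only term, Benjamini-Hochberg over 18115 genes), and SE comes from that fit. The code was tested on simulated data. Alternatives were RLE factors, no filter, DESeq2 1.42.0, limma 3.58.1 on log2(TPM + 1), sums over close copies, and leaving out each library. Spreadsheet dates in 26 gene symbols were restored from gene IDs. Of 89 listed related genes 88 were found. Transcripts come from GENCODE M21 and upstream sequences from RefSeq, of which 9 of 10 members had one. Coding sequences were aligned with Biopython 1.88. The members and lists were chosen with earlier results of these data known. The rule for named genes gave every member and, from each list, called members and up to 4 of the highest mean CPM.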

Additional observations from a re-analysis of the deposited data

How the results depend on the processing

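No paired analysis was possible because the labels give the libraries no shared replicate numbers. With RLE factors, without the filter and with limma on TPM, 0 genes were called in either direction, as in the edgeR test, where 603 genes were higher and 550 lower at an unadjusted p under 0.05. DESeq2 called 99 higher and 34 lower, with 1 in the NRF2 list (Gsta3) and 1 among carbonyl, alcohol and aldehyde enzymes (Cbr2); the cause was not tested. With a library left out, from 0 to 48 genes were called higher and from 0 to 44 lower, the most without Smad4 Knockout 1, when Cbr2 was again called (from 0 to 1 in its list), and 1 gene was called without Control 1. List medians then ran from -0.083 to 0.13 for other aldo-keto reductases, from 0.095 to 0.23 for NRF2 targets, from 0.080 to 0.25 for carbonyl, alcohol and aldehyde enzymes, from 0.13 to 0.55 for the polyol and fructose pathway and from -0.070 to 0.060 for steroid and prostaglandin enzymes. The Akr1b sum ran from -0.66 to -0.35 and the Akr1c sum from 0.20 to 0.29. Of 81 alternative log2 fold changes of members, 4 changed sign, all of them in Akr1b7 or Akr1c18. Akr1b7, Akr1c14, Akr1c18 and Akr1c21 were below the TPM filter of limma, and low counts limit these 4 genes.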
